A study of Mus musculus with 4 samples.

Results

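Butyrate is a short-chain fatty acid that gut bacteria make from dietary fibre, and it is also known as an inhibitor of histone deacetylases. The question addressed here was how the transcripts of 43 DNA replication genes stood in mouse colonoids, the organoids grown from colonic crypts, with and without it. The genes were chosen by symbol for their known roles in origin licensing, the replication fork and the supply of nucleotides in S phase, and all 43 were found among the 36144 named rows of the count table. The rule names symbols and no threshold on a measured value, but the list was drawn up with earlier results of these data known.

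The data were bulk RNA-seq of 4 libraries. Colonoids from a mouse labelled as a wild-type male aged 24 weeks were kept untreated or given 2 mM sodium butyrate, and each arm was taken at 48 h and at 72 h (day 2 and day 3 in the labels). In the study's own legend to these data the colonoids are described as Hes1-GFP rather than wild type, so the genotype is stated here as both sources give it. All 4 cultures were at passage 3, came from the proximal colon, and shared a medium with EGF, Noggin, R-spondin, CHIR99021 and Y-27632, which keeps crypt progenitors dividing. There was 1 library per condition, all from 1 mouse, so no difference below can be set against the spread between replicates and none carries a test. Intervals of counts and of changes are 95% intervals for counting error only. A change that excludes 0 by its interval differs between these 2 libraries, not between conditions.

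Replication begins when the origin recognition complex, with CDC6 and CDT1, loads the MCM2-7 ring on DNA in G1. In S phase CDC45, the GINS complex and MCM10 turn that ring into an active helicase, primase and the polymerases copy the strands, and the PCNA clamp, placed by replication factor C, holds the polymerases on the template. Transcripts of many of these genes are known to be raised around the entry to S phase by E2F transcription factors. In the colonic crypt they mark the dividing progenitors, and they are low in the mature surface cells.

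Total counts were 20790225 to 24207840 per library. Mitochondrial transcripts took 14.1% to 18.4% of them. All 7 epithelial markers (*Epcam*, *Cdh1*, *Krt8*, *Krt18*, *Krt19*, *Cldn7* and *Vil1*) had 5745 to 40538 counts in every library. Summed over the list they came to 150332, 153518, 158732 and 143284 normalised counts in the order untreated 48 h, butyrate 48 h, untreated 72 h and butyrate 72 h, the order used for every set of 4 values here. A normalised count is a count divided by the library's size factor, which was between 0.926 and 1.10. Of 5 fibroblast markers 1 passed the low-count filter, which asked for 2 or more libraries with over 10 counts, and their sums were 15.1 to 21.8. *Col3a1*, a fibroblast collagen, was at 0 in all 4. None of 6 immune markers passed, with sums of 10.2, 9.07, 24.7 and 24.8, and 1 of 3 endothelial markers passed, with sums of 28.6, 34.5, 53.3 and 28.1. The sum of the 5 markers of colonic position was 33949, 58281, 48275 and 29916, and its high value at 48 h came from 1 gene, *Car1*, a carbonic anhydrase, which had 19941, 49510, 35077 and 17453 counts. Without *Car1* the sums were 13559, 13362, 13641 and 11066 normalised counts. With butyrate at 72 h all 5 of these markers and 6 of the 7 epithelial markers were lower with intervals below 0, at medians of -0.39 and -0.17 on the log2 scale. The part of this in the higher levels of the replication genes at 72 h was not tested.

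All 43 replication genes passed the filter, with 108 to 5440 counts in a library. Together they took 0.250% (0.248 to 0.252) of the counts in untreated and 0.259% (0.257 to 0.261) in butyrate-treated colonoids at 48 h. At 72 h the shares were 0.224% (0.222 to 0.226) and 0.287% (0.285 to 0.290). The butyrate library thus held the larger share at both times, and the gap between the arms was wider at 72 h. In bulk samples, a change in the number of cells in S phase and a change in RNA per cell cannot be told apart.

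At 72 h the replication genes were higher with butyrate almost as a block, by small amounts. Of the 43 genes, 40 were higher in the butyrate library, and the median log2 fold change was 0.28 (from -0.15 to 0.61, with quartiles of 0.18 and 0.36). Of all 13979 genes that passed the filter, 50.3% were higher and 49.7% lower, with a median of 0.0022. Among the 9587 genes that lay within the replication genes' range of mean normalised counts (138 to 4884), 48.7% were higher and the median was -0.0083. The counting interval lay above 0 for 35 replication genes (25.9% of all genes tested) and below 0 for 0 (26.4%). Only *Chaf1b* was at least 1.5-fold higher, the size used as a call, against 9.50% of all genes tested and 3.77% of those in the same range of counts, and no replication gene was at least 1.5-fold lower (8.53%). With total count scaling 2 replication genes were at least 1.5-fold higher. The change was thus shared by nearly all of the list, and its size was below that of the genes that moved most in these cultures.

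At 48 h the same genes were split. Of the 43, 26 were higher and 17 lower with butyrate, with a median of 0.03 (from -0.41 to 0.53), beside 48.7% higher, 51.3% lower and a median of -0.01 over all genes tested. Among genes in the same range of counts 44.7% were higher. No replication gene was at least 1.5-fold higher (13.1% of genes tested and 6.27% of those in the same range of counts) or lower (8.90% and 5.56%). The interval lay above 0 for 14 genes (29.3% and 28.5%) and below 0 for 12 (31.3% and 37.1%). These interval counts were near the shares of all genes tested, so such a split at 48 h was not particular to this list. Single genes differed from one another by more than their counting intervals. Their standard deviation over genes was 0.26 on the log2 scale, below the 0.46 of genes in the same range of counts.

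**Figure D1:**
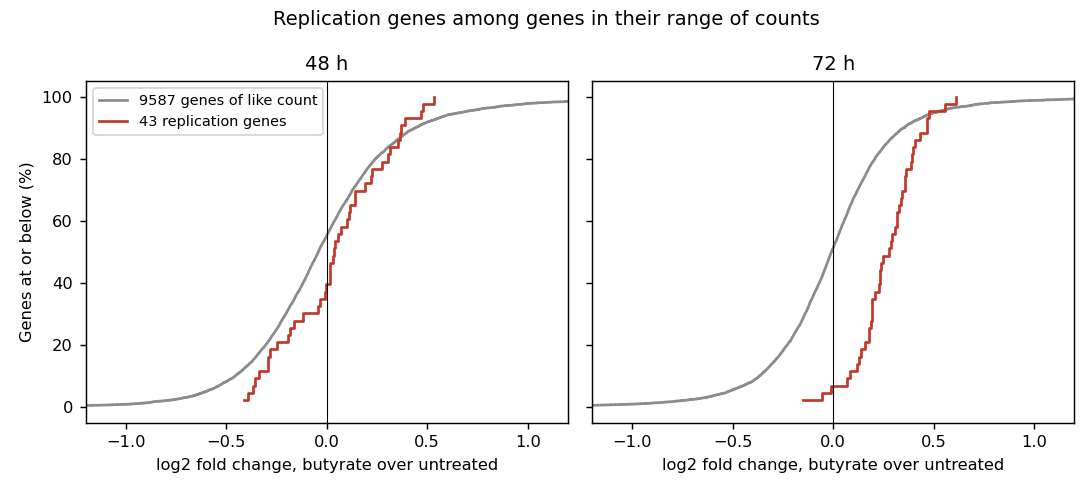
Cumulative share of genes (%) at or below each log2 fold change of butyrate over untreated colonoids, at 48 h and 72 h, for the 43 replication genes and the 9587 genes in the same range of mean normalised counts. At 48 h 26 of the 43 replication genes lie above 0, beside 44.7% of the other set, and at 72 h 40 of 43 do, beside 48.7%.

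Taking both times, 25 of the 43 genes were higher with butyrate at each time (30.4% of all genes tested), 15 were lower at 48 h and higher at 72 h (19.9%), 2 were lower at both (31.3%) and 1, *Gmnn*, was higher at 48 h and lower at 72 h (18.4%). The 2 that were lower at both were *Orc1* and *Rpa3*. The interval lay above 0 at both times for 12 genes (12.9%). Those were *Cdc6*, *Cdt1*, *Mcm3*, *Pcna*, *Rfc1*, *Rfc2*, *Pola2*, *Pold2*, *Rpa1*, *Rrm2*, *Chaf1a* and *Chaf1b*. The interval lay below 0 at 48 h and above 0 at 72 h for 9 genes (5.33%), namely *Mcm4*, *Mcm5*, *Cdc45*, *Rfc3*, *Pold1*, *Pole*, *Lig1*, *Tyms* and *Slbp*. With each gene set against genes of like length and GC content, the counts were 17 in place of 12 and 8 in place of 9. The shares of all genes were not computed in that way. Subunits of the same complex fell on either side of this split, as the polymerase delta, replication factor C and MCM genes show below.

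**Figure D2:**
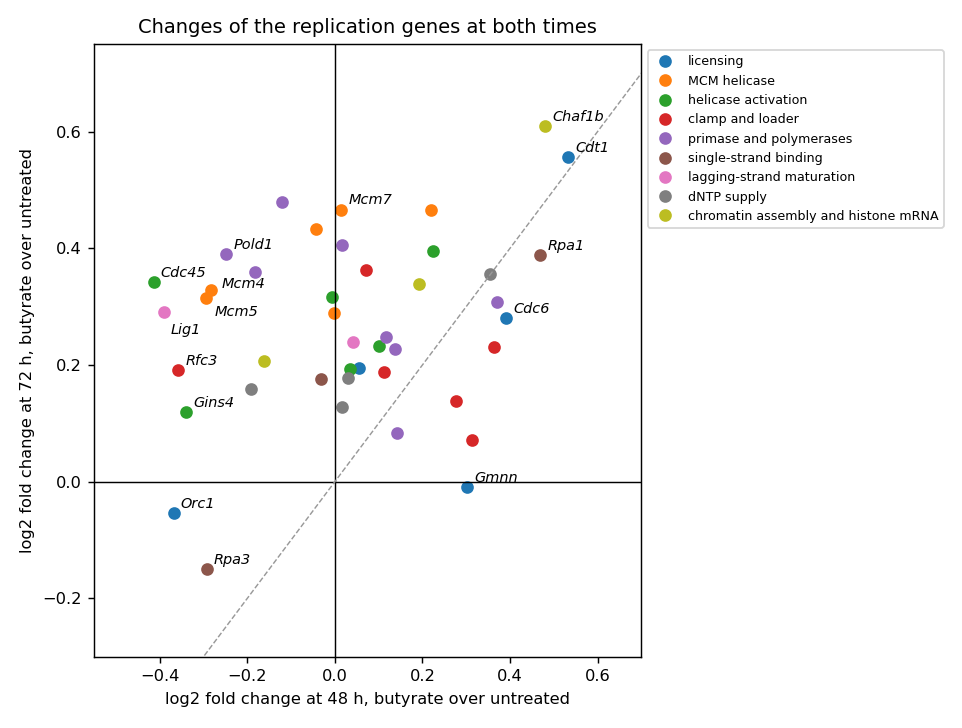
Log2 fold change of butyrate over untreated colonoids at 48 h (horizontal axis) and 72 h (vertical axis), 1 point per replication gene, coloured by role, with a dashed line of equal change. All but 3 points (*Orc1*, *Rpa3* and *Gmnn*) lie above 0 at 72 h, and they spread to both sides of 0 at 48 h.

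The licensing genes had the widest range of log2 fold changes of any role at both times. *Cdt1* (chr8:122568015-122573554 in GRCm38), which encodes the loader that brings the MCM ring to origins, had 967, 1399.9, 1044 and 1535 normalised counts. Both butyrate libraries were above both untreated ones, by 0.53 (0.42 to 0.65) on the log2 scale at 48 h and by 0.56 (0.44 to 0.67) at 72 h. *Gmnn* encodes geminin, which binds CDT1 and blocks a further round of licensing. Its normalised counts were 511, 631, 569.7 and 566. It was high in the butyrate library at 48 h alone, with a change of 0.30 (0.13 to 0.47), and had a change of -0.01 (-0.18 to 0.16) at 72 h, an interval that holds 0. The ratio of *Cdt1* to *Gmnn* counts within a library, in which the scaling of the library cancels, was one of several ratios picked after the values were seen. It was 1.89, 2.22, 1.83 and 2.71. The butyrate libraries held the higher ratio at both times, with log2 changes of 0.23 (0.03 to 0.43) and 0.57 (0.36 to 0.77).

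*Cdc6*, an ATPase that loads the MCM ring together with CDT1, had normalised counts of 564, 740.3, 501 and 608. It was higher with butyrate by 0.39 (0.23 to 0.55) at 48 h and 0.28 (0.10 to 0.46) at 72 h. *Orc1*, the subunit of the origin recognition complex whose protein is known to vary with the cell cycle, went the other way at 48 h. Its 4 values were 554, 429, 497 and 478, the untreated library at 48 h being the highest, with log2 changes of -0.37 (-0.55 to -0.19) and -0.05 (-0.24 to 0.13). The *Cdc6* to *Orc1* ratio was 1.02, 1.73, 1.01 and 1.27, so that the untreated libraries had nearly equal counts of the pair and both butyrate libraries had more *Cdc6*. *Orc6*, another subunit of that complex, had a change of 0.05 (-0.12 to 0.23) at 48 h and 0.19 (0.03 to 0.36) at 72 h.

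**Figure D3:**
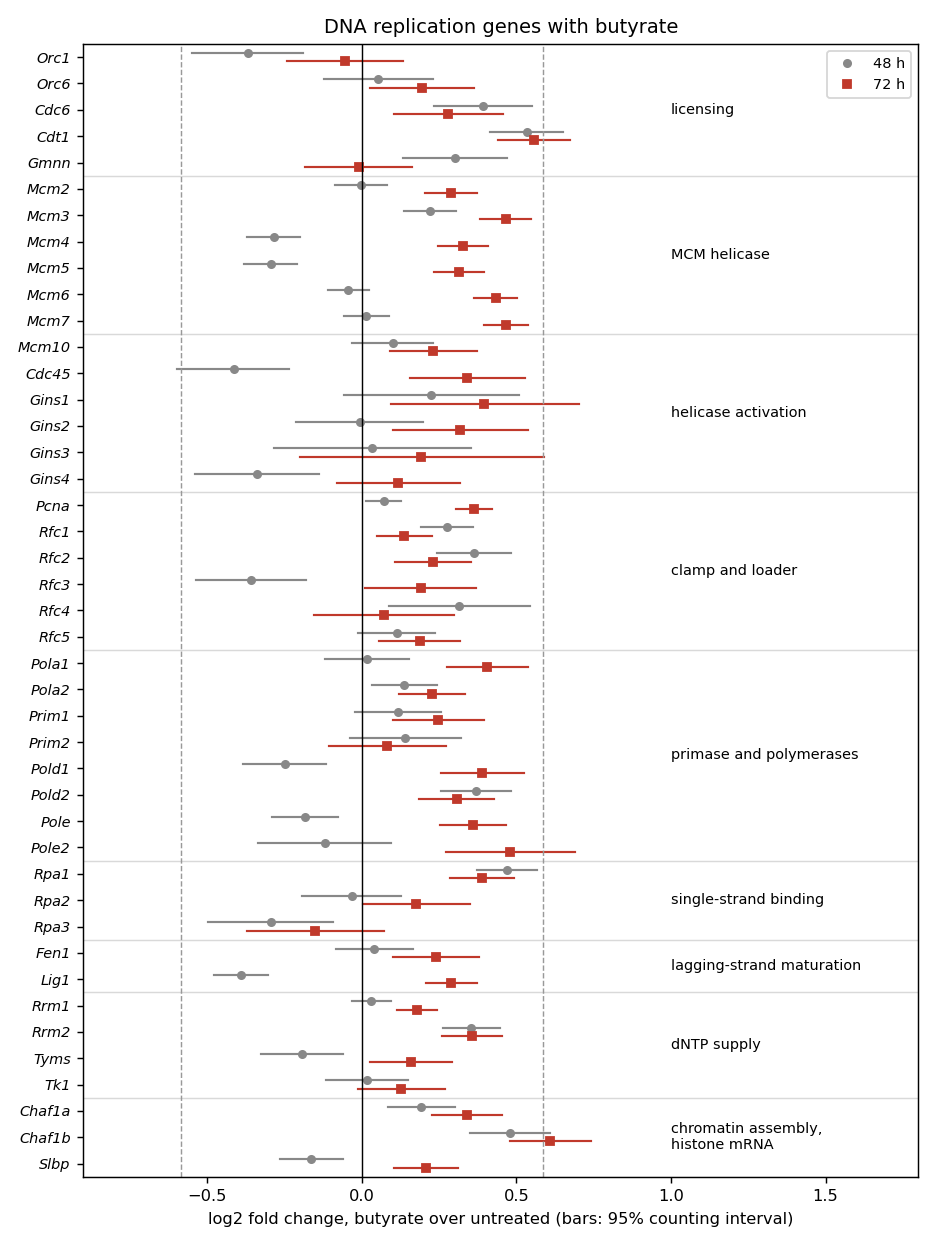
Log2 fold change of butyrate over untreated colonoids (horizontal axis) for each of the 43 replication genes, grouped by role, at 48 h (grey circles) and 72 h (red squares), with 95% counting intervals and dashed lines at 1.5-fold. The 6 MCM2-7 genes spread from -0.29 to 0.22 at 48 h and lie between 0.29 and 0.47 at 72 h.

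The genes of the MCM2-7 ring, whose subunits are known to act in equal numbers, showed the clearest difference between the times. All 6 were higher with butyrate at 72 h, by 0.29 to 0.47 on the log2 scale. *Mcm7* had 2968, 2999.5, 2892 and 3995 normalised counts, the butyrate library at 72 h standing above the other libraries, which lay close together. The log2 changes with butyrate were 0.02 (-0.06 to 0.09) at 48 h and, at 72 h, 0.47 (0.40 to 0.54). *Mcm6* was also highest in that library, with 3465, 3364, 3036 and 4099 and changes of -0.04 (-0.11 to 0.02) and 0.43 (0.36 to 0.50). *Mcm2* had 2280.2, 2276, 2203 and 2691, with changes of -0.0024 (-0.09 to 0.08) and 0.29 (0.21 to 0.37).

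The other MCM subunits differed from those at 48 h. *Mcm4* had 2337.5, 1919.8, 2287 and 2871 normalised counts and *Mcm5* (chr8:75109569-75128439) had 2358, 1923, 2329 and 2899. For both the butyrate library was the lowest of the 4 at 48 h and the highest at 72 h. *Mcm4* went from -0.28 (-0.37 to -0.20) at 48 h to 0.33 (0.25 to 0.41) at 72 h on the log2 scale. *Mcm5* went from -0.29 (-0.38 to -0.21) to 0.32 (0.24 to 0.40). *Mcm3*, in contrast, had 2043, 2379.8, 2112 and 2916 and was higher with butyrate at 48 h already, by 0.22 (0.14 to 0.30), as well as at 72 h, by 0.47 (0.38 to 0.55). The ratio of *Mcm3* to *Mcm5* counts was 0.866, 1.24, 0.907 and 1.01, with a log2 change of 0.51 (0.40 to 0.63) at 48 h and 0.15 (0.04 to 0.26) at 72 h. Per kilobase of exon, MCM levels ran from 328 (*Mcm2*) to 743 (*Mcm6*) normalised counts in untreated colonoids at 48 h. In butyrate-treated ones at 72 h they ran from 387 (*Mcm2*) to 903 (*Mcm7*). The length used covers all annotated exons of a gene, 6956 bases for *Mcm2*. Its part in the differences between subunits was not tested.

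Promoters were set beside these values because MCM and other replication genes are known for shared E2F control. RefSeq windows of 300 bases in GRCm38.p6, from 250 before to 50 after the start site, were matched for 35 of the 43 genes. *Gmnn*, *Mcm4*, *Gins1*, *Gins2*, *Gins4*, *Rfc2*, *Prim2* and *Pole* had no match. An E2F word (TTTCCCGC, TTTGGCGC, TTTCGCGC or TTTGCCGC, on either strand) lay in the window of 13 of 35 genes, or 37.1% (21.5 to 55.1), beside 4.50% of 10572 tested genes and 2.26% of all 32851 windows. Within the last 150 bases before the start site the share was 20% of the 35, beside 2.51% of tested genes. The CCAAT word bound by NF-Y, searched on both strands, lay in 65.7% of the 35, beside 43.0% of tested genes. Stretches just before the start site are shown for 3 genes with an E2F word and for *Chaf1b*, the gene with the largest change at 72 h, which has neither word there. Capitals mark E2F and CCAAT words, and where E2F words overlap or abut they form 1 run in capitals.

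*Mcm6* (chr1:128359706-128359825, minus strand): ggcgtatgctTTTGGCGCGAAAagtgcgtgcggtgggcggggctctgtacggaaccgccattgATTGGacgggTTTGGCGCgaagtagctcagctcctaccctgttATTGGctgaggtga

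*Mcm5* (chr8:75109344-75109508, plus strand): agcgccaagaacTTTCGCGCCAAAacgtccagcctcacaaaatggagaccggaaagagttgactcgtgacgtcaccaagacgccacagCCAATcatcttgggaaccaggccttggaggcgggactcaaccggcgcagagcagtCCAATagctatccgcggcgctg

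*Pola1* (chrX:93632156-93632305, minus strand): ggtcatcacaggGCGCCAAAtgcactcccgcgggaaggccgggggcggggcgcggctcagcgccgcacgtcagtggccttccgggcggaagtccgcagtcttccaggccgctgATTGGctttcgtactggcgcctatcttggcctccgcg

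*Chaf1b* (chr16:93883781-93883900, plus strand): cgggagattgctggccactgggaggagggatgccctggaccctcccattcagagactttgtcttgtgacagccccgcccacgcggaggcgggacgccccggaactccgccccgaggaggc

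The E2F words of *Mcm6* began 110, 106 and 47 bases before the start site, those of *Mcm5* 153 and 149, and that of *Pola1* 138. The overlapping pair in *Mcm6* and *Mcm5* consists of 1 word on each strand. *Mcm6* and *Pola1* shared a change near 0 at 48 h and a higher level with butyrate at 72 h, and *Mcm5* was lower at 48 h and higher at 72 h. As a description, the median change of the 13 genes with an E2F word was -0.04 at 48 h against 0.39 at 72 h, and that of the 22 without one 0.09 against 0.23. The difference between the times had a median of 0.45 in the former and 0.14 in the latter. The former include *Mcm3*, *Mcm5*, *Mcm6* and *Mcm7*, so this contrast shares genes with the MCM values above. *Cdc45*, which had the largest such difference, is among those without the word, and *Cdt1*, with almost none, is among those with it. A match of letters is not a measured binding site, and lack of an exact match is not a measured absence of one.

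*Cdc45*, which joins the MCM ring and GINS to form the active helicase, had the largest difference between the times of all 43 genes. Its normalised counts were 562, 422, 441 and 559, so that butyrate was below untreated at 48 h and above it at 72 h. The log2 changes were -0.41 (-0.60 to -0.23) and 0.34 (0.16 to 0.53), and their difference was 0.76 (0.50 to 1.01). Some of that difference lay between the untreated libraries, which differed by -0.35 (-0.53 to -0.17) from 48 h to 72 h. The GINS complex ties the helicase to the rest of the fork, and all 4 of its genes were higher with butyrate at 72 h, with intervals above 0 for *Gins1* and *Gins2*. *Gins4* had 449, 355, 413 and 448 normalised counts, with changes of -0.34 (-0.54 to -0.14) and 0.12 (-0.08 to 0.32). *Gins1* had changes of 0.22 (-0.06 to 0.51) and 0.40 (0.09 to 0.70). *Gins2*, of whose exon sequence 67.3% overlaps *Gse1* on the opposite strand, had -0.01 (-0.21 to 0.20) and 0.32 (0.10 to 0.54). *Gins3* was the gene with the lowest level per kilobase, at 58.9, 60.3, 39.4 and 45.1, and both libraries at 72 h were below both at 48 h whatever the treatment, with -0.58 (-0.95 to -0.22) between the untreated ones. *Mcm10*, a factor needed to start the helicase, had changes of 0.10 (-0.03 to 0.23) and 0.23 (0.09 to 0.37).

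The clamp gene *Pcna* was the most abundant of the replication genes, at 1957, 2056.5, 1805 and 2321 normalised counts per kilobase. Its log2 change with butyrate was 0.07 (0.01 to 0.13) at the earlier time and 0.36 (0.30 to 0.42) at the later, and the butyrate library at 72 h was the highest. Replication factor C, the loader that opens and closes the clamp, has 5 subunits, and these did not move alike at 48 h. *Rfc2* had 1010.3, 1299, 1031 and 1209.6 normalised counts and was higher with butyrate by 0.36 (0.24 to 0.48) at 48 h. *Rfc3* had 576, 449, 498 and 568, and its change at 48 h was -0.36 (-0.54 to -0.18). At 72 h the changes were 0.23 (0.11 to 0.35) for *Rfc2* and 0.19 (0.01 to 0.37) for *Rfc3*, so the pair differed at 48 h and not measurably at 72 h. Their ratio, 1.75, 2.89, 2.07 and 2.13, had a log2 change of 0.72 (0.51 to 0.93) at 48 h and 0.04 (-0.17 to 0.25) at 72 h. The large subunit gene *Rfc1* had changes of 0.28 (0.19 to 0.36) and 0.14 (0.05 to 0.23). *Rfc4* had 0.31 (0.09 to 0.54) and 0.07 (-0.16 to 0.30), and *Rfc5* had 0.11 (-0.01 to 0.24) and 0.19 (0.06 to 0.32). The exons of *Rfc2*, *Rfc4* and *Rfc5* overlap by 10% or more with those of a gene on the opposite strand, and the strand setting of the quantification is not given in the sources used here. Such an overlap held for 7 of the 43 genes (also *Chaf1a*, *Fen1*, *Gins2* and *Orc1*). Without them 21 of 36 genes were higher with butyrate at 48 h (48.7% of all genes tested) and 34 of 36 at 72 h (50.3%).

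The 8 listed genes of primase and the polymerases were all higher with butyrate at 72 h, by 0.08 to 0.48. Polymerase alpha with primase lays the RNA-DNA primers, and its 4 genes kept together at 48 h, between 0.02 and 0.14. *Pola1*, its catalytic subunit (chrX:93304767-93632155), had 837, 847, 871 and 1155 normalised counts. The first 3 libraries were alike and the butyrate library at 72 h was above them, with changes of 0.02 (-0.12 to 0.15) and 0.41 (0.28 to 0.54). *Pola2* had 0.14 (0.03 to 0.24) and 0.23 (0.12 to 0.33), *Prim1* had 0.12 (-0.02 to 0.26) and 0.25 (0.10 to 0.40), and *Prim2* had 0.14 (-0.04 to 0.32) and 0.08 (-0.11 to 0.27).

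Polymerase delta, which copies the lagging strand, showed a split between its subunits. *Pold1*, the catalytic subunit, had 949.9, 799, 841 and 1103 normalised counts, whereas *Pold2*, the accessory B subunit, had 1096, 1417, 1035 and 1281. With butyrate at 48 h the log2 change was -0.25 (-0.38 to -0.11) for the former and 0.37 (0.26 to 0.48) for the latter. At 72 h both were higher, by 0.39 (0.26 to 0.52) and 0.31 (0.19 to 0.43). The *Pold2* to *Pold1* ratio of 1.15, 1.77, 1.23 and 1.16 was raised in the butyrate library at 48 h alone, with log2 changes of 0.62 (0.45 to 0.79) and -0.08 (-0.26 to 0.10). In polymerase epsilon, the leading-strand enzyme, *Pole* had changes of -0.18 (-0.29 to -0.08) and 0.36 (0.25 to 0.47), and *Pole2* had -0.12 (-0.34 to 0.10) and 0.48 (0.27 to 0.69). Their ratio changed by 0.06 (-0.17 to 0.30) and 0.12 (-0.11 to 0.35), both intervals holding 0. The small histone-fold subunits of this enzyme are outside the 43 genes, *Pole3* being at -0.27 (-0.40 to -0.14) and -0.37 (-0.50 to -0.24). *Pole4*, named after its values were seen, was at -0.39 (-0.58 to -0.21) and 0.40 (0.20 to 0.61).

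**Figure D4:**
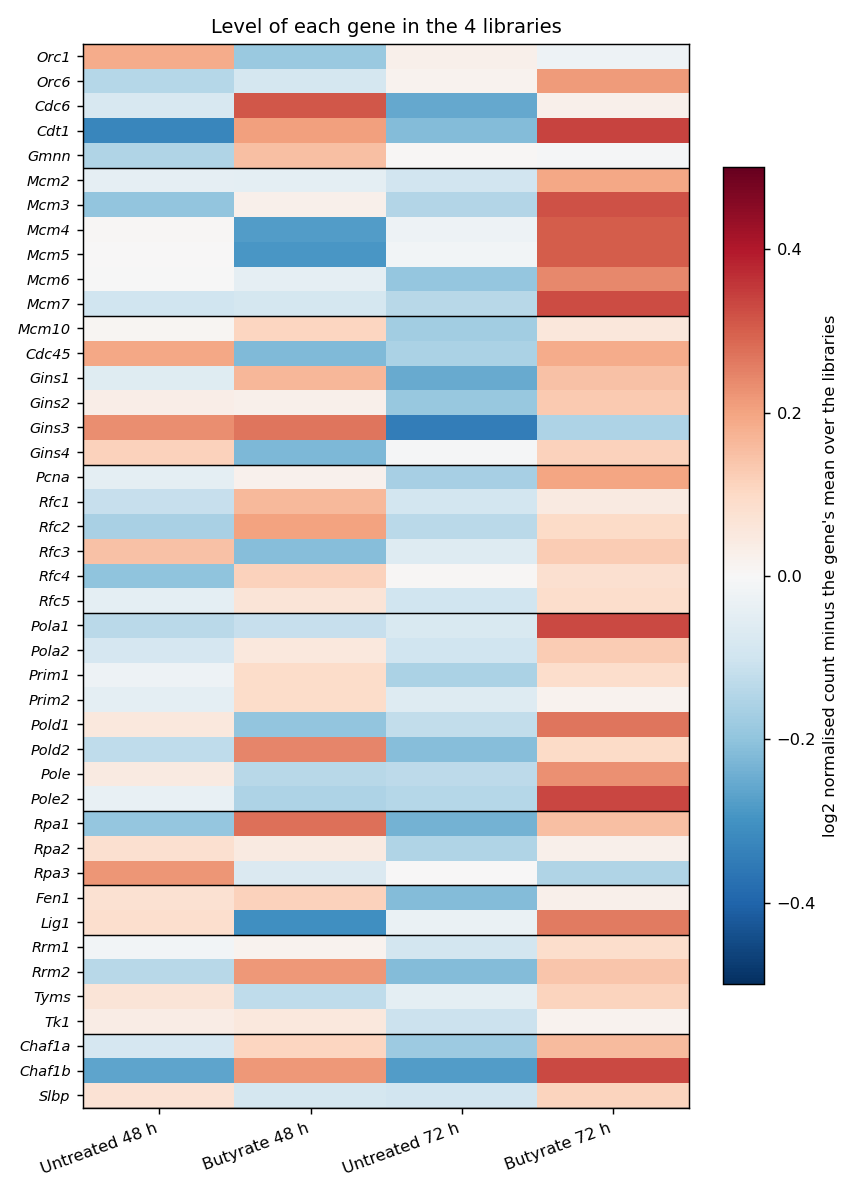
Level of each replication gene in the 4 libraries, as log2 normalised count minus the gene's own mean over the libraries (colour, red above and blue below), with horizontal lines between roles. The untreated library at 72 h was the highest of the 4 for 0 genes, and the butyrate library at 72 h was the highest for 22.

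The genes also differed in the library that held their highest level. The butyrate library at 72 h was highest for 22 of the 43 genes (23.5% of genes tested), among them all 6 MCM2-7 genes, *Pcna*, *Pola1*, *Pole* and *Pole2*. The butyrate library at 48 h was highest for 15 (31.9%), among them *Cdc6*, *Gmnn*, *Pold2*, *Rpa1*, *Rrm2* and *Fen1*. The untreated library at 48 h was highest for 6 (20.9%), which were *Orc1*, *Cdc45*, *Gins4*, *Rfc3*, *Rpa2* and *Rpa3*, and the untreated library at 72 h for 0 (23.7%).

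Replication protein A coats single-stranded DNA as a trimer. *Rpa1*, its large DNA-binding subunit, had 1414, 1958, 1371.5 and 1795 normalised counts and was higher with butyrate by 0.47 (0.37 to 0.57) at 48 h and 0.39 (0.28 to 0.49) at 72 h. *Rpa3*, its smallest subunit, had 431.5, 352, 370.3 and 334, with the untreated library above the butyrate one at each time and changes of -0.29 (-0.50 to -0.09) and -0.15 (-0.37 to 0.07). The ratio of *Rpa1* to *Rpa3* counts was thus 3.28, 5.56, 3.70 and 5.38, which was higher with butyrate by 0.76 (0.54 to 0.98) and 0.54 (0.30 to 0.78) on the log2 scale. *Rpa2* lay between them, with -0.03 (-0.19 to 0.13) and 0.18 (0.0033 to 0.35).

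*Fen1* and *Lig1* encode the flap nuclease and the ligase that finish Okazaki fragments. *Lig1* had 2355, 1796, 2174 and 2659 normalised counts, lowest in the butyrate library at 48 h and highest in that at 72 h. Its changes were -0.39 (-0.48 to -0.30) and 0.29 (0.21 to 0.37), with a difference between the times of 0.68 (0.56 to 0.80). *Fen1* had 999, 1028, 816 and 963, with changes of 0.04 (-0.08 to 0.17) and 0.24 (0.10 to 0.38), and 78.8% of its exon sequence overlaps the antisense gene *Gm10143*.

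In the supply of deoxynucleotides, ribonucleotide reductase has a catalytic subunit, *Rrm1*, and a small subunit, *Rrm2*, whose level is known to limit the enzyme in S phase. *Rrm2* had 1668, 2131, 1578 and 2019 normalised counts, both butyrate libraries being above both untreated ones, with changes of 0.35 (0.26 to 0.45) and 0.36 (0.26 to 0.45). *Rrm1* had 3920.4, 4006, 3721 and 4211, with 0.03 (-0.03 to 0.09) and 0.18 (0.11 to 0.24). The ratio of *Rrm2* to *Rrm1* counts changed by 0.32 (0.21 to 0.43) and 0.18 (0.06 to 0.29). *Tyms*, thymidylate synthase, had -0.19 (-0.32 to -0.06) and 0.16 (0.03 to 0.29), and *Tk1*, which salvages thymidine, had 0.02 (-0.12 to 0.15) and 0.13 (-0.01 to 0.27).

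Chromatin assembly factor 1 places new histones behind the fork. Its gene *Chaf1b* (chr16:93883901-93906115), whose promoter is shown above, had 824, 1149.5, 816 and 1244 normalised counts, both butyrate libraries standing above both untreated ones. It had the largest change of the 43 genes at 72 h, 0.61 (0.48 to 0.74), after 0.48 (0.35 to 0.61) at 48 h. *Chaf1a*, the large subunit, had 1270.0, 1451, 1185 and 1499, with 0.19 (0.08 to 0.30) and 0.34 (0.23 to 0.45), and 52.5% of its exon sequence overlaps *Ubxn6* on the opposite strand. *Slbp*, whose protein binds the stem-loop of histone mRNAs, had 1617, 1444, 1439 and 1661, with -0.16 (-0.26 to -0.06) and 0.21 (0.10 to 0.31).

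**Figure D5:**
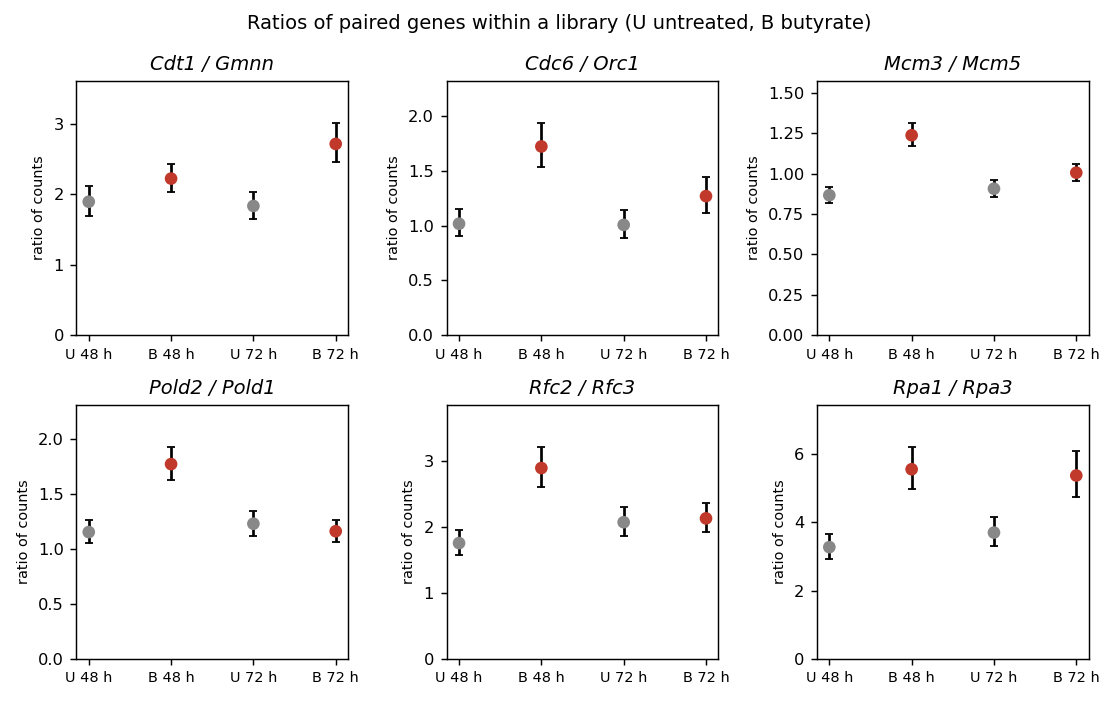
Ratio of the counts of 2 replication genes within each library (vertical axes start at 0), untreated in grey and butyrate in red, with 95% counting intervals. The pairs were picked after their values were seen. The *Pold2* to *Pold1* and *Rfc2* to *Rfc3* ratios stand out in the butyrate library at 48 h, and the *Rpa1* to *Rpa3* ratio is higher in both butyrate libraries.

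The time comparisons share these libraries with the comparisons above and are given for the same genes side by side. From 48 h to 72 h without butyrate, 35 of the 43 genes were lower (49.4% of genes tested) and 8 higher (50.5%), with a median of -0.11, which was -0.19 with total count scaling. None was at least 1.5-fold higher (6.82% of genes tested and 2.03% of those in the same range of counts) or lower (5.17% and 2.35%). With total count scaling 4 were higher and 1 was at least 1.5-fold lower. The interval lay below 0 for 16 (20.2% and 23.2%) and above 0 for 0 (22.4% and 24.3%). With total count scaling it lay below 0 for 29. That scaling lowered every gene of this comparison by about the same amount, and no share over all genes was computed under it. With butyrate, 26 were higher at 72 h than at 48 h (48.7%) and 17 lower (51.3%), with a median of 0.10, which was 0.16 with bins of length and GC content and 0.18 for the summed counts of the list. The interval lay above 0 for 20 (30.0%) and below 0 for 5 (31.4%), and 1, *Mcm5* at 0.59 (0.51 to 0.68), was at least 1.5-fold higher (9.66% of genes tested and 5.77% of those in the same range of counts), while none was at least 1.5-fold lower (11.9% and 6.27%). The count of genes at least 1.5-fold higher was 0 with total count scaling, 2 after thinning to the smallest library and 3 with bins of length and GC content, and the count of intervals below 0 was 8 with total count scaling. The wider gap between the arms at 72 h therefore held both lower levels in the untreated library at 72 h than at 48 h and, for part of the list, higher levels in the butyrate one. The change with butyrate at 72 h was above that at 48 h for 35 genes, beside 52.5% of genes in the same range of counts. The interval of that difference lay above 0 for 21 genes (24.7% of all genes tested) and below 0 for 2 (24.1%), *Gmnn* and *Rfc1*. This difference between the times was not tested: with single cultures, the time and the culture cannot be told apart.

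Fold changes in these libraries also moved with transcript length. Over 9569 genes with annotation in the same range of counts, Spearman's rho between log2 fold change and exon length was -0.21 for butyrate at 48 h, 0.12 at 72 h and 0.36 for butyrate 72 h over 48 h, across genes that share the same 4 libraries. Over the 43 replication genes, whose exons span 1136 to 11160 bases, it was 0.04, 0.12 and 0.11. With each gene set against genes of like length and GC content, the median of the replication genes was 0.0882 at 48 h, against 0.275 at 72 h.

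Other genes of the pathway were taken from lists of known function. Of 40 other replication genes, 18 were higher with butyrate at 48 h, a share near that of all genes tested (48.7%), and 34 at 72 h (50.3%), with medians of -0.07 and 0.21. At 48 h the interval lay above 0 for 9 (29.3% of all genes tested) and below 0 for 17 (31.3%). At 72 h it lay above 0 for 25 (25.9%) and below 0 for 1 (26.4%). At 48 h *Orc3*, a subunit of the origin recognition complex, was higher by 1.00 (0.86 to 1.14), with 601, 1204, 741 and 808 normalised counts. It stood high in the butyrate library at 48 h alone, and its change at 72 h was 0.13 (-0.02 to 0.27). *Pold4*, the smallest subunit of polymerase delta, was higher at 48 h by 0.61 (0.43 to 0.79). *Dscc1*, of an alternative clamp loader, was at -0.59 (-1.0 to -0.18) at 48 h. At 72 h *Atad5*, which unloads PCNA, and *Uhrf1*, which brings the maintenance methyltransferase to new DNA, had the largest changes of the list, 0.68 (0.51 to 0.87) and 0.67 (0.59 to 0.75). The lowest at 72 h were *Pole3*, given above, and the histone chaperone *Asf1a*, at -0.19 (-0.43 to 0.04).

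Of 22 genes of nucleotide synthesis, 19 were higher with butyrate at 48 h (48.7% of all genes tested) and 18 at 72 h (50.3%), with a median of 0.18 at both times. The interval lay above 0 for 13 (29.3% of all genes tested) and below 0 for 3 (31.3%) at 48 h, and above 0 for 13 (25.9%) and below 0 for 2 (26.4%) at 72 h. *Gart*, a trifunctional enzyme of purine synthesis, was higher by 0.72 (0.64 to 0.80) and 0.40 (0.31 to 0.49). The lowest at 72 h was *Shmt1*, a serine hydroxymethyltransferase, at -0.17 (-0.27 to -0.07). *Dctpp1*, which clears modified deoxycytidine triphosphates, was higher by 0.75 (0.58 to 0.92) at 48 h and had a change of 0.16 (-0.04 to 0.35) at 72 h. Of 16 genes for repair in S phase, 9 were higher at 48 h and 16 at 72 h, beside the same background shares, with medians of 0.05 and 0.36. Their intervals lay above 0 for 7 (29.3%) and below 0 for 5 (31.3%) at 48 h, and above 0 for 14 (25.9%) and below 0 for 0 (26.4%) at 72 h. Of 25 G2/M genes, 7 were higher at 48 h (48.7%) and 22 at 72 h (50.3%), with medians of -0.13 and 0.14, and with 3 intervals above 0 and 14 below 0 at 48 h against 13 above 0 and 0 below 0 at 72 h, beside 29.3%, 31.3%, 25.9% and 26.4% of all genes tested. *Top2a*, the topoisomerase that untangles sister chromatids, was higher at both times, by 0.22 (0.18 to 0.26) and 0.48 (0.44 to 0.53), as was *Cdk1*, the mitotic kinase, by 0.16 (0.05 to 0.26) and 0.23 (0.13 to 0.33). *Cenpe*, a kinetochore motor, was at -0.50 (-0.60 to -0.40) at 48 h and 0.57 (0.47 to 0.66) at 72 h.

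Among 20 genes of the E2F family and of the passage from G1 to S phase, 9 were higher at 48 h (48.7% of all genes tested) and 11 at 72 h (50.3%), with medians of -0.02 and 0.15. The interval lay above 0 for 7 (29.3% of all genes tested) and below 0 for 6 (31.3%) at 48 h, so the shares of the list at 48 h were near those of all genes. At 72 h it lay above 0 for 10 (25.9%) and below 0 for 4 (26.4%). *Ccne1*, cyclin E1, had 388, 706, 425 and 590 normalised counts. Both butyrate libraries were above both untreated ones, with changes of 0.86 (0.69 to 1.05) and 0.47 (0.29 to 0.66). *Cdk2*, the kinase that cyclin E binds, was at -0.43 (-0.55 to -0.31) at 48 h and 0.21 (0.08 to 0.34) at 72 h. Of the 3 activating E2F genes, *E2f2* was at 0.36 (0.20 to 0.52) and -0.56 (-0.73 to -0.39). *E2f3* was higher at both times, by 0.37 (0.24 to 0.50) and 0.26 (0.13 to 0.40), and so was *E2f1*, named after its values were seen, by 0.20 (0.04 to 0.37) and 0.41 (0.23 to 0.59). *Skp2*, which marks cell cycle inhibitors for breakdown, was at 0.24 (0.06 to 0.43) and 0.45 (0.23 to 0.67).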

How the data were processed

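RNA was sequenced from poly-A selected TruSeq libraries. The authors deposited 1 table of counts per gene, which per the submitters' processing notes came from kallisto 0.44.0 on GRCm38.p6 and, per the study's methods, were summed with tximport, so the whole numbers are rounded estimates that can divide reads between similar transcripts. Each of the 4 columns was tied to its sample by the library name in the labels, and 0 columns were left unused. Counts were scaled here by DESeq2 1.42.0 size factors, and genes were kept where 2 or more libraries had over 10 counts, 13979 of 36144. Log2 fold changes had a pseudocount of 1. Their intervals are exact Clopper-Pearson 95% intervals on the 2 counts (on the share itself for shares of counts), which cover counting error only. Intervals of the difference between the times and of a change in a ratio of 2 genes are normal approximations from the 4 counts involved. Changes in a ratio had no pseudocount. A call was a change of at least 1.5-fold. With 1 library per condition no p-value was computed. Levels per kilobase used the length of all annotated exons of a gene together in GENCODE M21 (GRCm38), not that of the transcript expressed. Promoters were RefSeq windows of GRCm38.p6. Scripts were run in Python 3.11.15 and R 4.3.3 and tested on simulated data.

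The replication genes and the other lists were chosen with earlier results of these data known. All 43 replication genes were described. Of each other list, the named genes were taken from the 2 highest and 2 lowest changes per time among genes averaging 50 or more normalised counts, and cell type markers were given as sums. A count of 0 allows up to 3 counts, or a CPM of 0.124 to 0.144. Of the gene names 26 read as dates, and none is a replication gene. Alternatives were TMM factors from edgeR 4.0.16, total counts, factors without mitochondrial genes, other filters, a pseudocount of 5, thinning to the smallest library, and, chosen after seeing the data, bins of length and GC content and leaving out genes that overlap others.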

Additional observations from a re-analysis of the deposited data

Results flagged for a closer look

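For 9 replication genes the butyrate library was below the untreated one at 48 h and above it at 72 h, with counting intervals on opposite sides of 0. The change at 72 h minus that at 48 h, on the log2 scale, was 0.61 for *Mcm4*, 0.61 for *Mcm5*, 0.76 for *Cdc45*, 0.55 for *Rfc3*, 0.64 for *Pold1*, 0.54 for *Pole*, 0.68 for *Lig1*, 0.35 for *Tyms* and 0.37 for *Slbp*. The same held for 5.33% of all genes tested, and for 6.35% of those in the same range of counts. With bins of length and GC content the count of replication genes was 8 in place of 9. With 1 library per condition the difference between the times was not tested.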

How the results depend on the processing

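Each comparison held 1 library on each side, so no pairing was possible within a comparison. A fit over all 4 libraries that pairs the arms by time, and so takes the times as replicates, was not run. Of 1376 values of single replication genes recomputed under the alternatives, 1359 moved by less than their counting interval and kept their sign where called, 15 moved by more (4 under total count scaling and 11 under bins of length and GC content) and 2 reversed, both with those bins for butyrate 72 h over 48 h (*Pold2* at 0.0886 and *Rrm1* at -0.136). Of 304 values for the whole list, 281 stayed and 23 moved. A count of genes was taken to stay if within 1.5-fold of the reported one, so it could still differ. With bins of length and GC content, intervals above 0 went from 14 to 18 at 48 h and from 12 to 17 at both times. No shares over all genes were computed with these bins. Over the alternatives the median ran from 0.02 to 0.09 at 48 h, from 0.27 to 0.33 at 72 h, from -0.19 to -0.08 between the untreated libraries and from 0.07 to 0.18 between the butyrate ones. With the interval in place of 1.5-fold, 14 genes were called higher (29.3% of all genes tested) and 12 lower (31.3%) at 48 h. At 72 h 35 were called higher (25.9%). Between the untreated libraries 16 were called lower (20.2%). Between the butyrate ones 20 were called higher (30.0%) and 5 lower (31.4%). At 2-fold the calls at 72 h and between the butyrate libraries were 0. Total count scaling, which shifted all genes by 0.05 at 72 h, called 2 genes 1.5-fold higher at 72 h. Between the untreated libraries it lowered all genes alike, called 1 lower and left 4 higher, with 29 intervals below 0. Between the butyrate ones it called 0 higher, with 8 intervals below 0. No shares over all genes were computed under this scaling. Thinning gave 1 interval above 0 between the untreated libraries and 2 genes 1.5-fold higher between the butyrate ones, and the bins gave 2 and 3. The cause was not tested. Without mitochondrial counts the shares were 0.294%, 0.301%, 0.274% and 0.343%. In the last 150 bases before the start site, 20% of matched genes held an E2F word, beside 2.51% of tested genes. At the depth of *Gins3*, the gene with the fewest counts, a change with butyrate of the size of the list's median could not be shown at 72 h.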
